A study of Anas platyrhynchos with 6 samples.

Results

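The circular RNAs of FGFR2, the gene of fibroblast growth factor receptor 2, were described in the breast muscle of female Shanma duck embryos at 13 and at 19 days of incubation (E13 and E19), with 3 libraries for each stage. By their labels the myoblasts of E13 muscle were undifferentiated, and in E19 muscle most of them had differentiated. No agent, transgene or deletion was used in either stage, and the stages differed in age and in the state of their myoblasts together. FGFR2 was chosen from the summed circular reads of all genes, with its fall between E13 and E19 already known, so its levels at the stages are given as a description and without a test. Its circles were found by the gene symbol and by the Ensembl ID that carries the same gene description, ENSAPLG00000011952. This gave 6 listings, which are 3 of the 14917 back-splice junctions in the table.

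A circular RNA forms when the splicing machinery joins the end of a downstream exon back to the start of an upstream exon. The closed molecule lacks free ends and resists RNase R, the exonuclease used here to digest linear RNA before sequencing, and a read across the joined ends (a back-splice read) marks it. FGFR2 is a receptor tyrosine kinase that binds fibroblast growth factors together with heparan sulfate and signals through the adaptor FRS2 to the RAS and MAP kinase pathway. FGF signalling keeps cultured myoblasts dividing and delays their differentiation, and the receptor is also made by epithelia, cartilage and connective tissue. A count of back-splice reads gives the level of the circle and not of the linear mRNA or of the receptor.

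All 3 FGFR2 junctions lay on the minus strand of chromosome 6 and ended at the same base, 31856981, where exon 2 starts. The coordinates follow the Ensembl duck genome, and the sources used here do not name its build. In the listings with exon numbers the circle of exons 2 and 3 ran from 31855951. The circle of exons 2 to 4 ran from 31849213, and the circle of exons 2 to 5 from 31842513. The circles therefore shared 1 splice acceptor and differed in the donor that was joined to it. The other listing of each circle started 1 base later, and counted from that start they spanned 1030, 7768 and 14468 bases of the genome. They held 342, 512 and 636 exonic bases after splicing. From the difference of these sizes exon 4 has 170 bases and exon 5 has 124 bases.

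**Figure D1:**
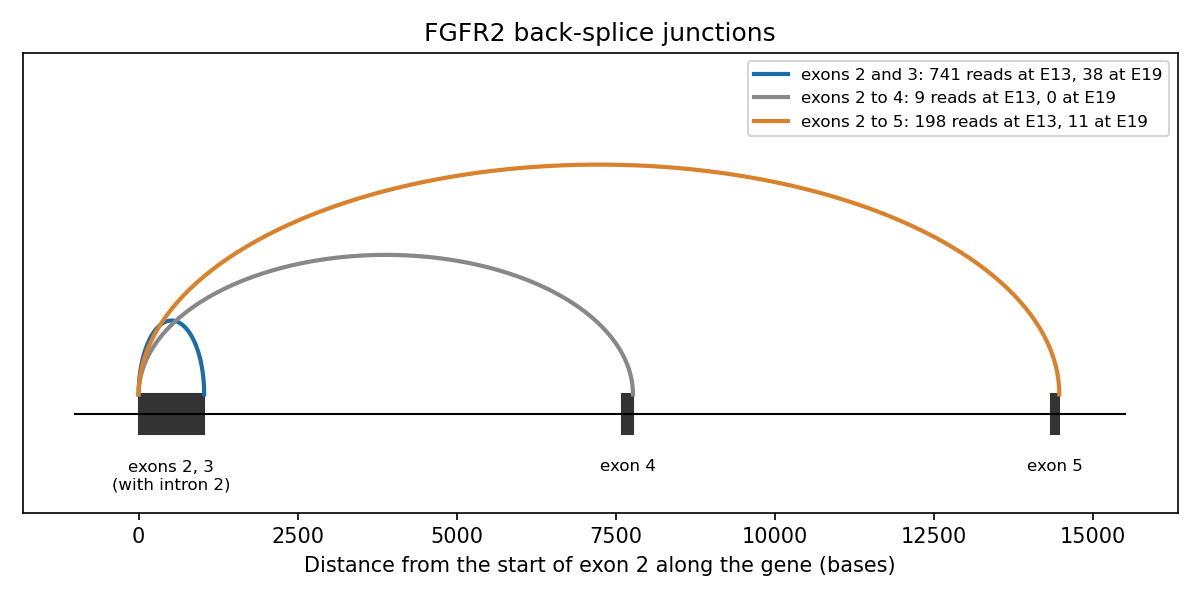
Map of the FGFR2 back-splice junctions, drawn as distance in bases from the start of exon 2 along the gene. Each arc joins the start of exon 2 to the donor used by 1 circle and the key gives its reads summed over 3 libraries per stage, with 741 reads at E13 for exons 2 and 3, 9 for exons 2 to 4 and 198 for exons 2 to 5. The height of an arc has no scale.

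These circles were of ordinary build for the table. Exon 2 was the first exon in 2239 of the 9553 listings with several numbered exons (23.4%), and 615 listings (6.44%) held exons 2 and 3 alone. The median exonic circle had 453 bases, so the circle of exons 2 and 3 was shorter than the median and the others were longer. Of the exonic circles 32.9% were shorter than the one of exons 2 and 3, 57.2% shorter than the one of exons 2 to 4, and 70.1% shorter than the one of exons 2 to 5. The intron before exon 2 measured 15.5 kb, and 68.6% of the 2385 listings with both flanking introns given had a shorter one. The intron behind the circle was 6.57 kb for exons 2 and 3, 6.58 kb for exons 2 to 4 and 15.6 kb for exons 2 to 5, with a median of 7.76 kb over these listings. Neither the lengths nor the introns of these circles stood at an end of the range of the table.

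Each FGFR2 junction was listed under a pair of circRNA numbers whose starts are 1 base apart, as are 1714 junctions of the table. It was counted once, with the larger count in each library. The listings of exons 2 and 3, circRNA1120 and circRNA4799, differed by at most 11 reads in any library. Over the 6 libraries the smaller counts came to 97.4% of the larger ones for exons 2 and 3 and to 94.7% for exons 2 to 5 (circRNA1118 and circRNA4797). For exons 2 to 4 (circRNA1119 and circRNA4798) they came to 55.6%, because circRNA4798 had no read in E13 replicate 3 and circRNA1119 had 4. Over all such pairs the smaller counts were 71.0% to 79.7% of the larger ones, depending on the library.

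The libraries held 36506 to 58647 back-splice reads at E13 and 49587 to 69736 at E19, on 4249 to 4981 and 4713 to 5741 junctions. The lowest total was that of E13 replicate 2. Levels are given below as back-splice reads per 1000000 mapped reads (RPM), which take out the number of mapped reads but not a difference in the efficiency of RNase R digestion, which was not tested. A log2 change is the edgeR estimate for E19 over E13 with its standard error (SE), and with bulk tissue fewer cells that make a circle and fewer circles per cell cannot be told apart.

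All FGFR2 circles together were 19.7-fold lower on average at E19 than at E13. The E13 libraries held 306, 129 and 513 of their reads and the E19 libraries 18, 7 and 24, which is 948 against 49. Every E13 library lay far above every E19 library, and the lowest at E13 was 6.05 times the highest at E19 in RPM. Such a separation with E13 on top was found for 5.28% of the 1836 genes with at least 10 circular reads and the opposite one for 10.4%, and FGFR2 was chosen from this contrast. The mean level was 11.9 ± 7.13 RPM at E13 and 0.603 ± 0.306 at E19 (SD, n = 3 each), with a log2 change of -4.29 (SE 0.419). FGFR2 gave 0.353% to 1.09% of all back-splice reads of a library at E13 and 0.0100% to 0.0484% at E19. Among 4129 parental genes it ranked 8 by circular reads at E13 and 487 at E19, although 1092 genes had more junctions than its 3.

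The circle of exons 2 and 3 carried most of these reads. It was read 204, 86 and 451 times at E13 and 15, 7 and 16 times at E19. The stages did not overlap, and E13 replicate 3 stood well above the other E13 libraries. A separation with E13 on top was found for 4.85% of the 3608 junctions with at least 10 reads, and one with E19 on top for 9.65%. By the edgeR test 1.16% of these junctions differed, 0.776% higher and 0.388% lower at E19. On the RPM scale the circle was at 7.32, 3.50 and 17.1 in the E13 libraries and at 0.561, 0.268 and 0.578 in the E19 libraries. The mean went from 9.30 ± 7.00 to 0.469 ± 0.174, a ratio of 19.8 and a log2 change of -4.29 (SE 0.470). Without E13 replicate 3 the log2 change was -3.51 (SE 0.525). With 741 reads at E13 this junction ranked 11 of 14917.

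The circle of exons 2 to 5 was lower at E19 by nearly the same factor, from a lower level at E13. It had 97, 43 and 58 reads at E13 and 3, 0 and 8 at E19. Again every E13 library was above every E19 library, but here replicate 1 was the highest at E13. The levels were 3.48, 1.75 and 2.2 RPM at E13 against 0.112, 0 and 0.289 at E19, with means of 2.48 ± 0.899 and 0.134 ± 0.146. This is a ratio of 18.5 and a log2 change of -4.15 (SE 0.630), which lies within 1 SE of the change of the circle of exons 2 and 3. Without E19 replicate 3, which held most of its E19 reads, the log2 change was -5.34 (SE 0.827). Its 198 reads at E13 put it at rank 104 of 14917 junctions.

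**Figure D2:**
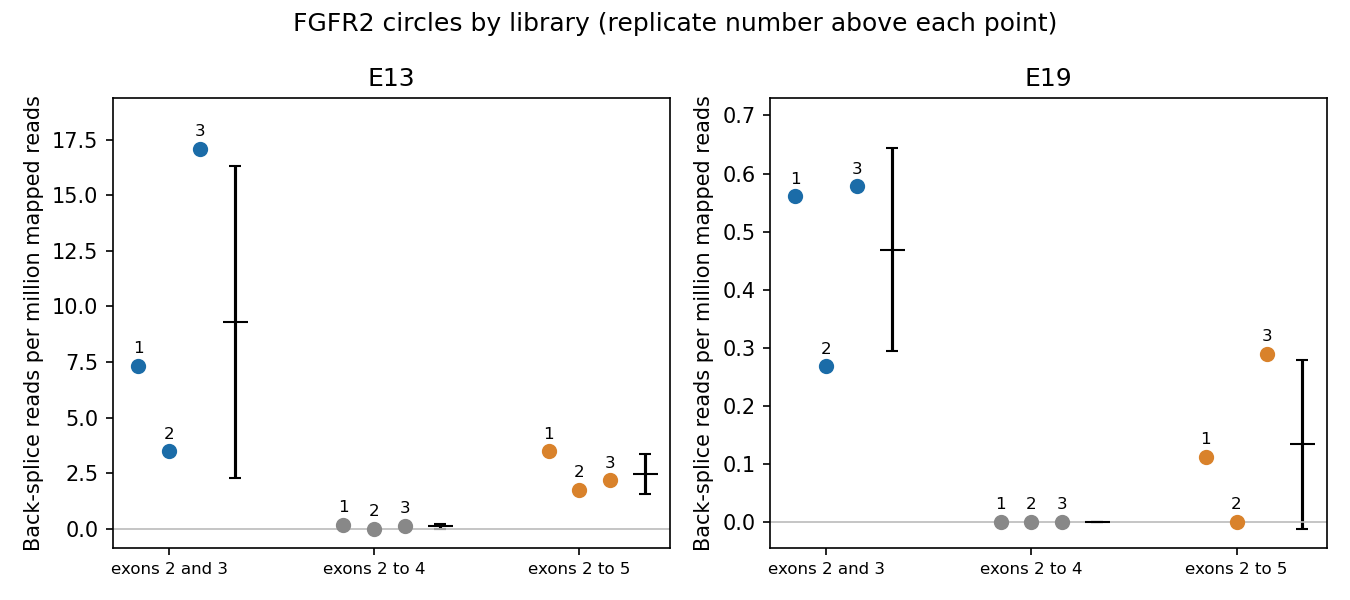
Back-splice RPM of the 3 FGFR2 circles in each library, E13 on the left and E19 on the right, with separate vertical scales. Points are libraries with their replicate numbers, and the cross bar and whiskers beside them are the mean and SD of 3 libraries. Exons 2 and 3 lie between 3.50 and 17.1 at E13 and between 0.268 and 0.578 at E19, and E13 replicate 3 is high for this circle only.

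The circle of exons 2 to 4 was rare and did not pass the minimum of 10 reads. It had 5, 0 and 4 reads at E13 and none in any E19 library. The other listing of the junction, circRNA4798, had 5 reads at E13, all in replicate 1, so the counts are too few to give a fold. At E19 the 49 FGFR2 reads leave room for a share of this circle of up to 6.12%, so a change of its share between the stages was not detectable at this depth. Between the circle that ends with exon 3 and the one that ends with exon 5, the donor of exon 4 was thus used in 9 of 997 back-splice reads of the gene.

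The shares of the circles did not separate the stages. Summed over the libraries the circle of exons 2 and 3 took 78.2% of the FGFR2 reads at E13 (95% Wilson interval 75.4% to 80.7%) and 77.6% at E19 (64.1% to 87.0%). The circle of exons 2 to 5 took 20.9% and 22.4%. As means of the libraries the share of exons 2 and 3 was 73.7% ± 12.3 at E13 and 83.3% ± 16.7 at E19, and that of exons 2 to 5 was 25.4% ± 12.3 and 16.7% ± 16.7 (SD, n = 3 each). The ranges overlapped for both circles, and the 18, 7 and 24 reads of the E19 libraries give wide intervals. The intervals cover counting error only, since reads were not counted as unique molecules.

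Within E13 the libraries differed by more than the stage means did. The share of exons 2 and 3 was 66.7% in replicate 1 (61.2% to 71.7%), 66.7% in replicate 2 (58.2% to 74.2%) and 87.9% in replicate 3 (84.8% to 90.5%). Replicates 1 and 2 had the same share of this circle although their FGFR2 reads differed from 306 to 129, and replicate 3 lay outside the intervals of both. In the same order 31.7%, 33.3% and 11.3% fell to exons 2 to 5 and 1.63%, 0% and 0.780% to exons 2 to 4, where the Wilson interval of 0 of 129 reads reaches 2.89%. There were 2.1, 2.0 and 7.8 reads of exons 2 and 3 for each read of exons 2 to 5 in the E13 libraries. At E19 this ratio was 5.0 in replicate 1 and 2.0 in replicate 3. In E19 replicate 2 all 7 reads were of exons 2 and 3, and the Wilson interval of 0 of 7 allows a share of exons 2 to 5 of up to 35.4%. The E19 shares thus spread from 66.7% to 100% for exons 2 and 3, with intervals that overlap one another.

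**Figure D3:**
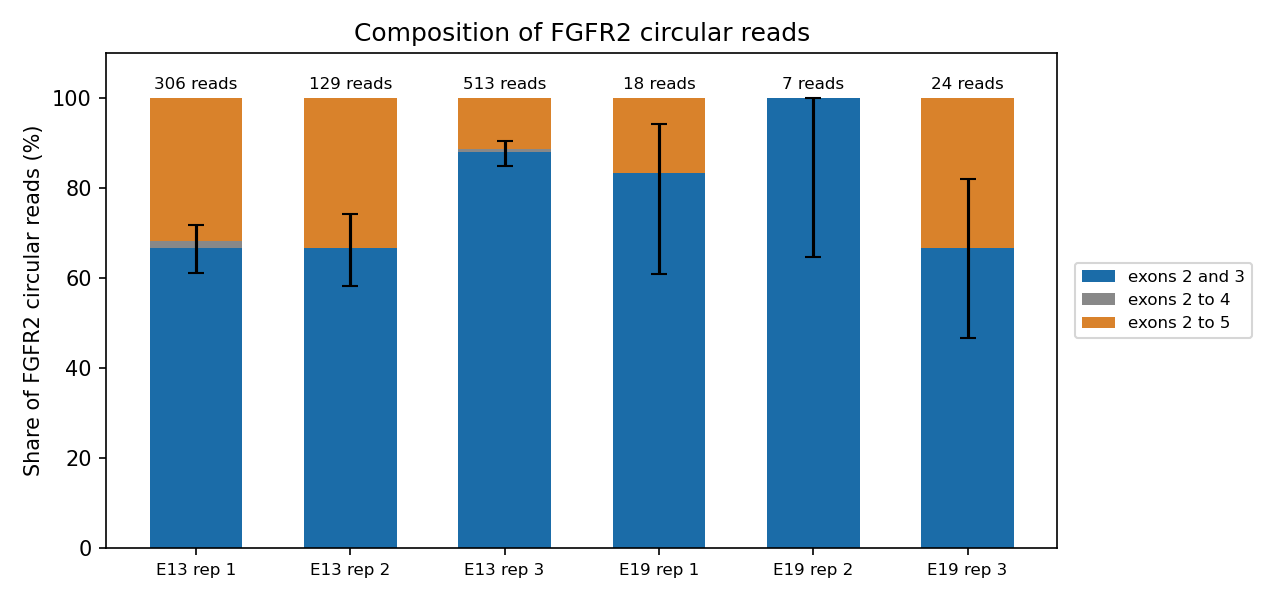
Share of the FGFR2 circular reads (%) held by each circle in the 6 libraries, with the number of reads above each bar. Error bars are the 95% Wilson intervals of the share of exons 2 and 3, which is 66.7%, 66.7% and 87.9% at E13 and 83.3%, 100% and 66.7% at E19.

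The excess of E13 replicate 3 was found in 1 FGFR2 circle and not in the other. The circle of exons 2 and 3 was 3.16 times as high in replicate 3 as the mean of replicates 1 and 2, while the circle of exons 2 to 5 was at 0.840 of it. Among the 243 junctions with at least 100 reads at E13 the median of this ratio was 0.960, so the library was not higher in general. FGFR2 exons 2 and 3 ranked 4 in this ratio, behind junctions of ANTXR1 (10.8), PDSS2 (4.43) and EXOC2 (3.21), and FGFR2 exons 2 to 5 ranked 158. In the ratio of the highest to the lowest E13 library the circle of exons 2 and 3 ranked 7 with 4.88 and that of exons 2 to 5 ranked 84 with 1.99, against a median of 1.76. Both listings of exons 2 and 3 had the excess, with 448 and 451 reads, but they list the same junction in the same library and are no separate evidence of it.

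Among the acceptors as grouped here, a shift of this size between circles that share an acceptor was uncommon at E13. Grouping by listed acceptor position gave 34 acceptors with several circles and at least 100 reads in each E13 library. On the plus strand this position is the listed start, which can differ between listings of the same acceptor. Groups there may be split or missing, so the comparison holds only for these 34. The FGFR2 circles lie on the minus strand and share their listed end. The share of the leading circle at FGFR2 moved by 21.2 percentage points between the E13 libraries, and the median over the 34 was 4.32 points. Of the 34, NUBPL and ENSAPLG00000015846 alone moved further, both by 24.1 points. Summed connective tissue markers were at 0.454 RPM in E13 replicate 3, the lowest of the E13 libraries. Cartilage markers, also at 0.454, and nerve markers, at 1.74, were between the other E13 libraries. Replicate 3 was the highest E13 library, by little over replicate 1, for markers of skin epithelium (0.265 against 0.251) and endothelium (0.151 against 0.108). The former came from TP63 alone, with 7 reads in each of these libraries, and the latter rests on a few reads. It was also the highest for muscle fibre genes (5.53, against 5.38 in replicate 1) and myoblast regulators (18.7 against 15.5). The cause of the excess was not tested.

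**Figure D4:**
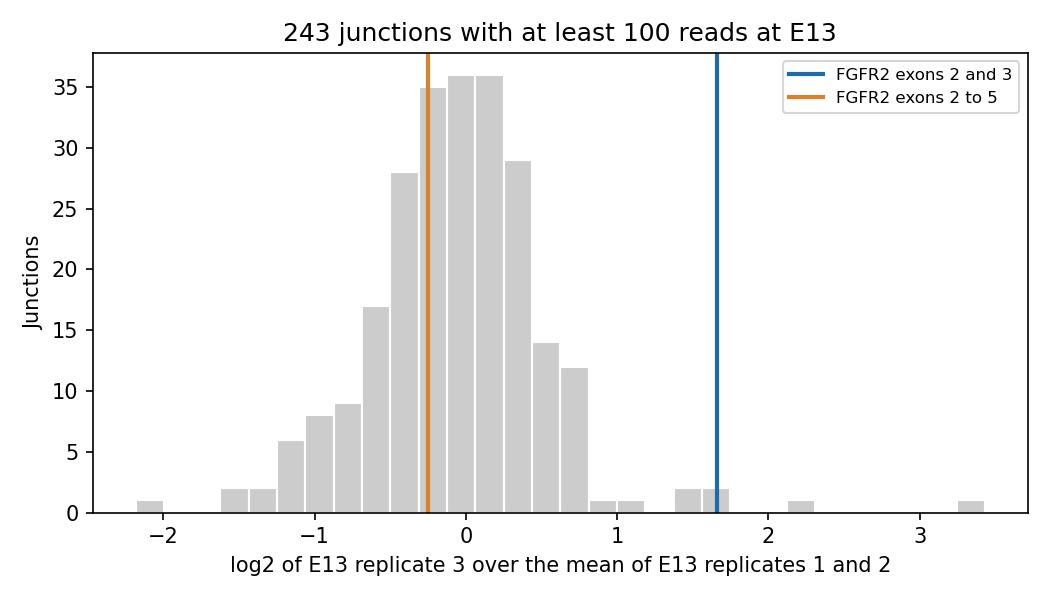
Histogram of 243 junctions with at least 100 reads at E13 by the log2 ratio of their level in E13 replicate 3 to the mean of E13 replicates 1 and 2, with the number of junctions on the vertical axis. Coloured lines mark the FGFR2 circles: exons 2 and 3 (a ratio of 3.16, rank 4) stand in the upper tail and exons 2 to 5 (0.840, rank 158) in the bulk.

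The genes whose circular reads were most like those of FGFR2 over the 6 libraries were ATRNL1, PPP3CA, ENSAPLG00000020683, ENSAPLG00000013307 and GMDS. The measure was the root mean square difference of mean-centred log2 levels among 766 genes with at least 50 reads, and smaller is more alike. ATRNL1, an attractin-like gene, had a difference of 1.13, with 109, 54 and 46 reads at E13 and 16, 5 and 4 at E19. PPP3CA, the catalytic subunit of the phosphatase calcineurin, had 1.16, with 56 reads at E13 and 10 at E19. GMDS, an enzyme of GDP-fucose synthesis, had 1.25, with 121 and 30 reads. The sixth gene followed closely at 1.28, and the median gene was at 2.44. ENSAPLG00000013307 had 48, 22 and 103 reads at E13 and 7, 14 and 7 at E19. As in FGFR2, replicate 3 was its highest E13 library and replicate 2 its lowest, an order that the measure itself favours. ENSAPLG00000020683, with 162 and 13 reads, had its highest E13 count in replicate 1. None of the 5 had a fitted log2 change as large as that of FGFR2, and they ranged from -3.64 to -2.01.

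The other FGF receptors gave few circles. FGFR4, a receptor made in the developing muscle of the chick, had 7, 1 and 5 reads at E13 and 9, 15 and 10 at E19, from a single junction of exons 7 to 9. With the larger listing taken in each library, its E19 libraries all had more reads than its E13 libraries. The listing circRNA5355 alone had 0, 1 and 5 reads at E13 and 0, 15 and 8 at E19, so there the stages overlapped. The FGFR4 log2 change of 1.36 (SE 1.09) did not pass (edgeR adjusted p = 0.801). FGFR1, the main FGF receptor of dividing myoblasts, had 8 reads at E13 and 1 at E19 over 3 junctions. FGFR3 had 1 and 3 reads and FGFRL1, a receptor that lacks the kinase domain, 0 and 4. FGFR2 held 948 of the E13 reads of the family and the other 4 receptors together held between 0.163 and 0.431 RPM in any E13 library, against 5.25 to 19.4 for FGFR2.

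Of 23 ligands and binding proteins, FGF12 and FGF18 had circular reads. FGF12, a member that is not secreted, gave 95, 91 and 73 reads in the E13 libraries and 89, 93 and 76 in those of E19. The libraries were level across the stages, and the estimate was -0.04 on the log2 scale (SE 0.380, edgeR adjusted p = 0.986). Its circles had the same exon numbers as the shorter ones of FGFR2, exons 2 and 3 and exons 2 to 4 from a shared exon 2. The share of exons 2 and 3 was 96.8%, 92.3% and 100% in the E13 libraries and 93.3%, 92.5% and 89.5% in the E19 libraries. Among the E13 libraries replicate 3 had the highest share, but this order rests on 3, 7 and 0 reads of exons 2 to 4. The Wilson intervals of these E13 shares overlapped one another, whereas for FGFR2 that of replicate 3 overlapped neither of the others. The FGF12 share of 100% in replicate 3 still lay above the intervals of replicates 1 and 2, which reach 98.9% and 96.2%. So few reads cannot show whether the share of FGF12 moved in replicate 3. FGF18, a ligand of cartilage and bone, had 2 reads at E13 and none at E19.

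The partners and relays of the receptor gave no call. Over all 1836 genes tested, 50 differed between the stages (2.72%), 33 of them higher (1.8%) and 17 lower (0.926%) at E19, and the median log2 change was 0.24. Of 37 co-receptors and heparan sulfate genes 9 were tested and none passed, with a median log2 change of -0.11. NCAM1, a cell adhesion molecule that can bind FGF receptors, had 103 reads at E13 and 188 at E19 (0.85, SE 0.426, edgeR adjusted p = 0.402), and ANOS1, a heparan sulfate binding protein that modulates FGF receptors, had 45 and 43. Of 51 adaptor and relay genes 11 were tested and none passed, with a median of 0.34. The kinase BRAF went from 177 to 198 reads (0.14, edgeR adjusted p = 0.964) and the RAS activator SOS1 from 51 to 98 (0.88, edgeR adjusted p = 0.612). FRS2, the adaptor of the receptor, had 4 and 0 reads and was not tested. Of 21 inhibitors of FGF signalling 8 were tested and none passed, with a median of -0.10. NF1, which switches RAS off, had 118 and 165 reads (0.44, edgeR adjusted p = 0.884) and SPRED1, which restrains RAF activation, had a log2 change of -0.41 (edgeR adjusted p = 0.906). No SPRY gene had a circular read.

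Among receptor tyrosine kinases FGFR2 led at E13 and not at E19. It held 948 of the 2098 circular reads of 26 such receptors at E13 (45.2%) and 49 of 858 at E19 (5.71%), which put it first at E13 and at rank 7 at E19. The 26 include FGFRL1, which lacks the kinase domain and had 0 reads at E13 and 4 at E19. Next at E13 was EPHA3, a receptor of ephrins that guides migrating cells, with 415 reads. Of 49 other kinases 12 were tested and EPHA3 alone passed, in the same direction as FGFR2. Over all 1836 genes tested 2.72% passed in either direction, and 0.926% of the 1836 passed as lower at E19. EPHA3 had 198, 114 and 103 reads at E13 and 81, 37 and 57 at E19, so the stages did not overlap. EPHA3 fell by 1.27 on the log2 scale (SE 0.380, edgeR adjusted p = 0.0350), and the adjusted p rose above 0.05 whichever library was left out (0.0528 to 0.366). ROR1, an orphan receptor that binds WNT5A, had 147 and 114 reads, and IGF1R, the receptor of insulin-like growth factors, had 142 and 96. The median log2 change of the 12 was -0.47.

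**Figure D5:**
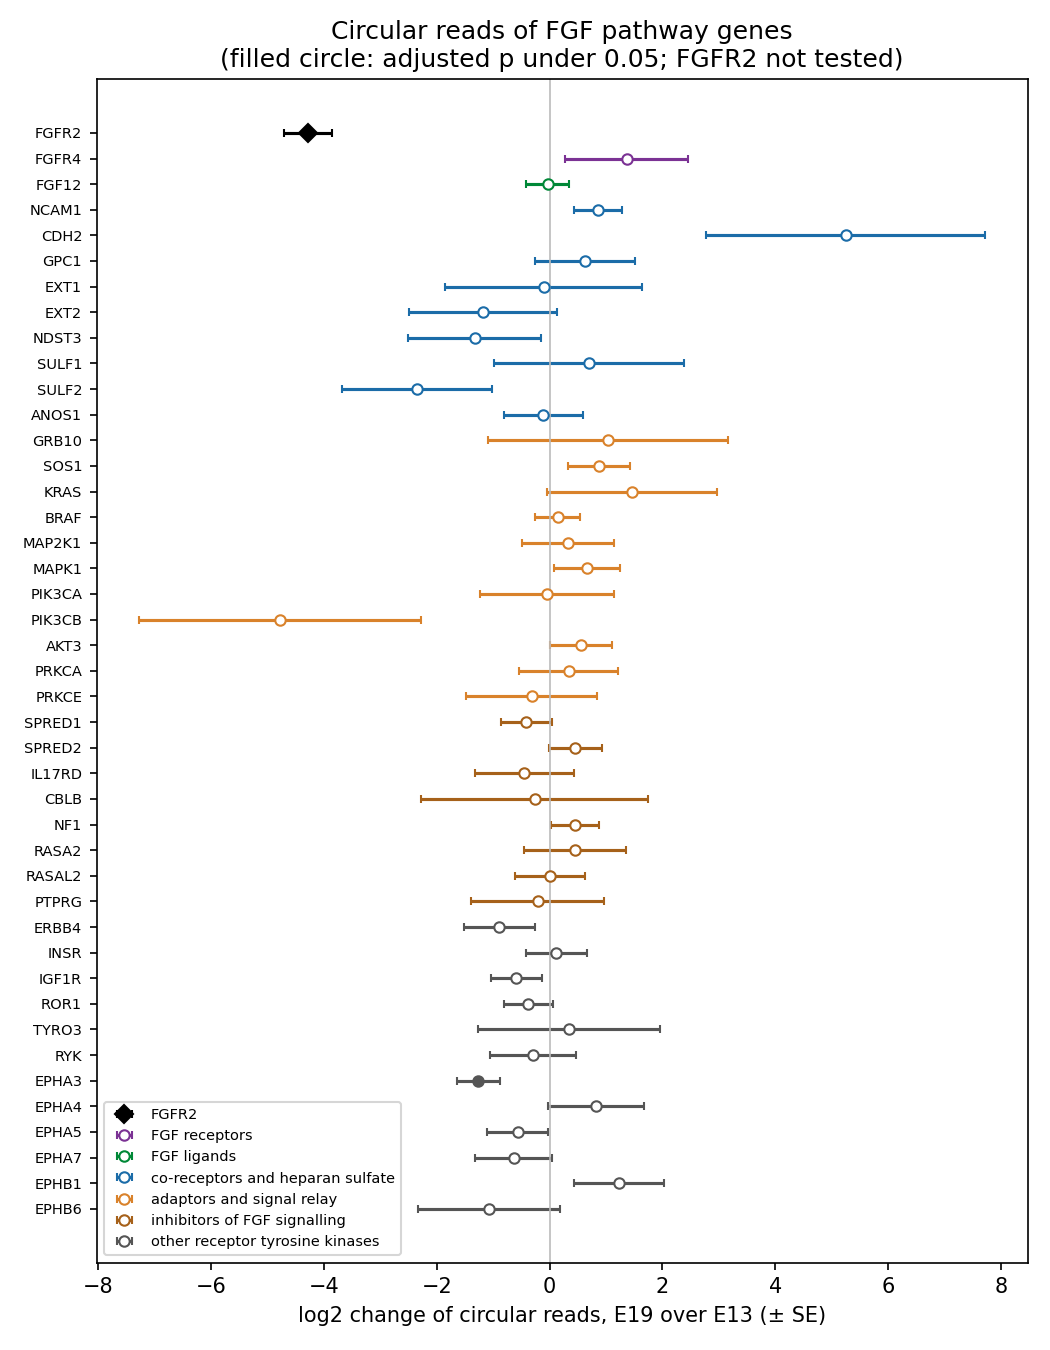
edgeR log2 change of circular reads from E13 to E19 with its SE for FGFR2 and the tested genes of its pathway lists and of other receptor tyrosine kinases. Filled circles passed the edgeR test (EPHA3 alone), open circles did not, and FGFR2 (diamond, -4.29) was not tested. CDH2 and PIK3CB had no reads at 1 of the stages, so their fitted values depend on the prior count.

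Genes known to regulate splicing of FGFR2 or the making of circles gave no call: of 29 genes 7 were tested, with a median log2 change of 0.74. PTBP2, which represses exons, had 163 reads at E13 and 240 at E19, and RBFOX2, which acts on the alternative FGFR2 exons in human and rodent cells, had 148 and 249. RBFOX1 went the other way, from 128 to 71 reads (log2 change -0.86, edgeR adjusted p = 0.494). ESRP1 and ESRP2, the epithelial regulators of FGFR2 exon choice, had no circular reads. Of 33 myoblast regulators 8 were tested and none passed, with a median of 0.65. With 2.72% of all 1836 genes passing, lists this short could have no call without differing from the rest. EYA2, a transcription cofactor of the muscle lineage, had 531 and 583 reads, and the histone deacetylase HDAC4 had 379 and 643.

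Circles of muscle fibre genes moved the other way from FGFR2 where they passed. Of 37 such genes 10 were tested, 2 passed as higher at E19 and none as lower, and the median log2 change was 0.70. Over all 1836 genes tested 1.8% passed as higher and 0.926% as lower. MYH10 had 18 reads at E13 and 10 at E19 and ATP2A2 15 and 7, and neither passed. The tested genes and their median include MYH10 and ACTN1, which are non-muscle forms of myosin and actinin. DMD, the gene of dystrophin, had 47 reads at E13 and 164 at E19 (1.75, SE 0.489, edgeR adjusted p = 0.0181). RYR3, a calcium release channel, had 6 and 62 (3.24, SE 0.941, edgeR adjusted p = 0.0270). LDB3, a protein of the Z disc, had 284 and 460 reads and did not pass (edgeR adjusted p = 0.415). When 1 library was left out, DMD stayed under 0.05 only without E13 replicate 3 (edgeR adjusted p = 0.0481, otherwise 0.0637 to 0.166). RYR3 did so only without E19 replicate 1 (0.0185, otherwise 0.0571 to 0.546). TTN, NEB and MYH1 had no circular reads. Among other sarcomere genes MYBPC1 had 0 reads at E13 and 22 at E19, MYOM2 2 and 20, and TPM1 6 and 1. MYBPC1 and MYOM2 did not pass (edgeR adjusted p = 0.177 and 0.573) and TPM1 was not tested. Circles of some muscle genes were thus read and those of TTN, NEB and MYH1 were not, which is no check of the labelled tissue.

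Summed markers of connective tissue, cartilage and bone, skin epithelium and endothelium, which a breast muscle sample can hold, overlapped between the stages. Of 24 connective tissue genes 8 had circular reads, at a summed level of 0.454 to 0.862 RPM at E13 and 0.345 to 0.822 at E19. The collagen genes COL12A1 and COL14A1 had 27 and 14 reads at E13 and 17 and 7 at E19, and neither passed. COL1A2 went the other way, from 0 to 16 reads, and did not pass (edgeR adjusted p = 0.321). Of the members not tested, DCN and POSTN each had 0 reads at E13 and 4 at E19, and FAP had 1 and 3. TNC had 5 and 0 and FN1 2 and 0. Of 12 cartilage and bone genes 4 had reads, at 0.326 to 2.37 and 0.362 to 1.53. SOX5 and SOX6, transcription factors of cartilage that other tissues also make, differed in direction. SOX5 had 44, 0 and 12 reads at E13 and 7, 6 and 4 at E19, so the stages overlapped (log2 change -1.67, SE 0.82), the sign of FGFR2, and did not pass (edgeR adjusted p = 0.398). SOX6 had 22 and 57 reads (1.36, SE 0.77, edgeR adjusted p = 0.494), RUNX2 3 and 0, and MATN1 5 and 0. TP63 alone of 10 skin epithelium genes had reads, 14 at E13 and 3 at E19 (0 to 0.265 and 0 to 0.112 RPM, log2 change -2.08, SE 1.96, edgeR adjusted p = 0.877). Among the members at 0 were KRT5, CDH1 and EPCAM of the epithelium and SOX9, ACAN and COL2A1 of cartilage. Endothelial genes (4 of 9 with reads) reached at most 0.153 RPM, and of 9 blood and immune genes RUNX1 had 1 read. Summed FGFR2 circles were at 5.25 to 19.4 RPM at E13, far above these marker sums, but circular reads are no measure of how many cells of a type a sample held, and the part of cell composition, these markers included, in the difference of FGFR2 was not tested.

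Circles were few around FGFR2. Within 1 Mb on either side 4 genes had circular reads, and 1 of them was tested. TACC2, a centrosomal coiled-coil gene, went from 10 reads to 26, which did not pass (1.31 on the log2 scale, SE 1.31, edgeR adjusted p = 0.897). PLEKHA1 had 1 read and PSTK and TIAL1 had 2 each.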

How the data were processed

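RNA of the breast muscle of 3 E13 and 3 E19 embryos was depleted of ribosomal RNA and treated with RNase R. Per the paper's methods, adapters were removed with Cutadapt, reads were placed on the Ensembl duck genome by Bowtie 2 and TopHat 2, and circles were called from TopHat-Fusion, CIRCexplorer2 and CIRI. Junctions had at most 2 mismatches, at least 1 read and splice sites less than 100 kb apart. Tool versions: not given in the sources used here. In the deposited tables the counts are raw back-splice reads for each circRNA in each library. The authors' signal, SRPBM, divides these counts by mapped bases, and only its denominators were used. Columns with the authors' fold changes and p-values were not used.

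FGFR2 and the gene lists were chosen with earlier results of these data known. Of 16631 rows 14917 junctions remained after pairs of listings were joined, and 1245 of 2099 Ensembl IDs were joined to a symbol. Junctions and summed genes with at least 10 reads were fitted with edgeR 4.0.16 (R 4.3.3, quasi-likelihood, mapped reads as library size, Benjamini-Hochberg, threshold 0.05). The SE is the absolute log2 change over the square root of F. Wilson intervals came from scipy 1.17.1. DESeq2 1.42.0 and other scalings, filters, listings and libraries were alternatives, and the method was tested on simulated data. From each list the passing genes (at most 4) and the 2 with most reads are named, and every FGF receptor and ligand with reads. An item that meets this rule is not reported here. Other genes, such as FRS2, MYH10, ATP2A2, MYBPC1, MYOM2, TPM1, RBFOX1, COL1A2 and the markers at 0, were chosen after their values were seen. The sources do not say whether libraries of a stage came from separate hatches, so p-values measure the spread between these libraries.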

Additional observations from a re-analysis of the deposited data

How the results depend on the processing

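FGFR2 kept its direction in all 16 alternatives, which is no test of its fall. FGFR2 was chosen with this fall known, and its lowest E13 library was 6.05 times its highest E19 library in RPM. Its log2 change was -4.49 to -4.26 under other scalings, tools, filters, listings and the replicate block, and -4.64 to -3.74 with each library left out. For exons 2 and 3 these ranges were -4.51 to -4.11 and -4.68 to -3.51, and for exons 2 to 5 -4.40 to -4.09 and -5.34 to -3.59. Without E13 replicate 3 the mean share of exons 2 and 3 at E13 was 66.7%, and with each E13 library left out it ranged to 77.3%. The 42 junctions that differed became 75 with DESeq2, 15 with a minimum of 20 reads, 325 at the study's thresholds (log2 change of at least 1, unadjusted p of at most 0.05), and 2 to 29 with each library left out. The 50 genes became 32 with a minimum of 20 reads, 209 at the study's thresholds, and 13 to 46 with each library left out. Fits without a library hold fewer libraries, and other causes were not tested. Replicate numbers did not pair the libraries: same-numbered libraries correlated at -0.147 to -0.0380 in their deviations from the stage means over 767 genes, and no library correlated best with its own number. With the replicate number as a block 35 junctions and 29 genes passed. Scaling moved the median log2 change of all genes by -0.19 (TMM) and -0.28 (total back-splice reads), and the genes passing were then 28 higher and 21 lower, or 19 and 26, against 33 and 17, and the junctions 22 and 17, or 14 and 18, against 28 and 14. Of the alternatives, adjusted p stayed under 0.05 in 6 of 16 for EPHA3 (0.00262 to 0.366), 8 of 16 for DMD (0.0158 to 0.411) and 3 of 15 for RYR3 (0.0185 to 0.546). At E19 the 7 to 24 FGFR2 reads per library limit any statement on its shares.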
